A study of Homo sapiens with 45 samples.

Results

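MHHES1 (MHH-ES-1 in full) is an established Ewing sarcoma cell line, represented by 3 RNA libraries. It was set against the other 6 Ewing sarcoma lines of the study, A673, EW3, EW24, RDES, SKES1 and TC71, each with 3 libraries and none given a treatment in the labels. Genes were picked by order: a gene was counted as highest, or lowest, when its TPM value (a transcript level scaled for length and for sequencing depth) in all 3 MHHES1 libraries lay above, or below, that of each of the 18 other libraries. Of 25640 genes with enough counts to be tested, 1297 (5.06%) were highest and 607 (2.37%) were lowest in MHHES1. Taken in TMM-scaled CPM, counts scaled between libraries and not for length, the order gave 996 highest (3.88%) and 907 lowest genes (3.54%), so the excess of highest over lowest depends on the scale. Of the 1297 and 607 genes, 857 and 553 were so on both scales, and counts below are on the TPM scale unless CPM is named. The same order rule applied to each of the other lines gave from 709 highest genes (TC71) to 2600 (EW3), and from 455 lowest genes (RDES) to 1633 (TC71), so that MHHES1 lay inside the range of the lines in both directions.

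Ewing sarcoma arises in bone or soft tissue, from cells in which EWSR1 is fused to an ETS family transcription factor gene, in most tumours FLI1 and in some ERG. The fusion protein binds ETS motifs and GGAA repeats, turns on genes such as NKX2-2, NR0B1 and CCND1, and holds down others of a mesenchymal programme. The cells also carry part of a neural programme, and interferon-stimulated genes, which type I interferon turns on through JAK and STAT proteins and IRF9, are a readout of antiviral signalling in many cell types.

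The study measured poly(A) RNA of 45 libraries, of which the 21 of the Ewing sarcoma lines are compared here. The 18 libraries of 6 osteosarcoma lines (U2OS, SAOS2, MG63, G292, HOS-MNNG and KHOS) serve as an outside reference, and 6 libraries of A673 cells with a hairpin were not used here. The labels number the replicates of a line 1 to 3 without saying whether they were separate cultures, so the spread between replicates may be technical. The edgeR and DESeq2 p-values below come from 1 sum per line and measure the spread between lines. The limma p-values come from single libraries, with 1 correlation between libraries of a line (0.775 with all 21) shared by all genes. Their degrees of freedom count libraries and not lines, so a small limma p-value can overstate the evidence for a difference between lines. Each line is a single isolate of a tumour, and a difference between MHHES1 and the others is a difference of that line.

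The MHHES1 libraries held 23550572 to 30089284 estimated counts and the other Ewing libraries 23132161 to 51413254. The 3 MHHES1 libraries correlated with each other at a Pearson r of 0.987 to 0.990 across genes, and the MHHES1 sum correlated with those of the other lines at a Spearman rho from 0.859 (EW3) to 0.892 (RDES) across 12589 genes, which are not independent replicates. In MHHES1 replicate 3, 143 genes were over 2-fold above the mean of its mates and 19 below. Measured the same way, replicate 1 had 23 above and 107 below, and replicate 2 had 30 and 34. Of the 24 genes of the interferon response list, 23 were among the 143. In other lines, TC71 replicate 3 differed over 2-fold from its mates in 1070 genes and EW3 replicate 1 in 480. For the interferon genes, and for calls by DESeq2 or limma, values are therefore also given without MHHES1 replicate 3.

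With each line as 1 sample, made by summing its 3 libraries, edgeR's quasi-likelihood test of MHHES1 against the 6 lines called 0 genes at a Benjamini-Hochberg adjusted p under 0.05 (called share 0.0% in each direction). The lowest adjusted p was 0.0887, and 929 genes had an unadjusted p under 0.05, of which 444 were above and 485 below the other lines. DESeq2 on the same sums called 35 genes above (0.137%) and 132 below (0.515%), and limma voom on the 21 libraries with the line as a random effect called 114 above (0.445%) and 13 below (0.0507%). In a simulated check of this design on 24632 genes, edgeR recovered 1% of 100 genes changed by 2 on the log2 scale and 36% of 100 genes changed by 4. An exact permutation of 1 line among 7 cannot give a p below 0.143. The fold changes below are therefore descriptions of these libraries, on the log2 scale of the edgeR fit, with its standard error (SE). No gene named below was called by edgeR, and a call by another tool is stated where the text uses it.

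Beside these fits, the genes nearest the edge of the order rule show how narrow it can be. DCAF6 counted as highest with a lowest MHHES1 value of 74.3186 TPM against 74.3158 TPM in the highest other library, and NUMB missed with 30.2174 against 30.2321 TPM. RAD50 counted as lowest with 16.721 against 16.7279 TPM, and RPS10 missed with 2713.9606 against 2713.8577 TPM. When a gap of at least 2-fold on TPM + 1 was asked for, 80 genes were highest and 28 lowest.

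The Ewing identity of MHHES1 was checked first. FLI1, whose 3′ part is carried by most fusions, measured 44.1, 43.4 and 46.3 TPM in the MHHES1 libraries, and the other libraries ran from 1.51 to 46.5 TPM with a median of 31.6. MHHES1 thus lay at the upper end, and the low FLI1 values belonged to EW3. ERG, the other fusion partner, had a count of 1 in MHHES1 and 36.6 TPM in the highest EW3 library. EWSR1, the common 5′ partner, measured 266, 274 and 266 TPM, within the range of 192 to 341 TPM of the others. These tables give estimated counts per transcript and no fusion reads.

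Targets turned on by EWS-FLI1 were expressed in MHHES1, with levels from above to far below those of the other lines. NKX2-2, a homeobox factor used as an Ewing marker, measured 121, 105 and 110 TPM, inside the other lines' range of 14.7 to 149 TPM and above the osteosarcoma lines, whose highest mean was 5.55 TPM. LOXHD1 measured 235, 192 and 224 TPM against a median of 58.2 and a highest value of 127 TPM elsewhere. PAX7, a paired box factor of muscle stem cells that Ewing cells express, measured 118, 121 and 114 TPM, above a highest other value of 101 TPM in SKES1. CCND1, which encodes the G1 regulator cyclin D1, measured 1395, 1220 and 1337 TPM, and the other libraries ran from 329 to 1101 TPM with a median of 789. MHHES1 and the other lines did not overlap in CCND1, and the log2 fold change was 0.61 (SE 0.41).

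NR0B1, which encodes the orphan receptor DAX1 and is driven by GGAA repeats bound by EWS-FLI1, was far below most lines. It measured 0.576, 0.901 and 0.475 TPM in MHHES1, while the other libraries had a median of 72.4 and a highest value of 237 TPM. RDES was as low, with a mean of 0.316 TPM, so NR0B1 was not lowest in MHHES1, and the remaining 5 lines had means from 51.0 to 196 TPM. Its log2 fold change was -7.25 (SE 3.12), which DESeq2 called (adjusted p = 0.0113, and 0.0189 without replicate 3) and edgeR did not.

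Of the 35 EWS-FLI1 activated genes tested, 6 were highest in MHHES1 (STEAP2, CCND1, JAK1, LOXHD1, PAX7 and HOXD13) and 2 were lowest (IGF1 and VRK1), beside 5.06% and 2.37% of all genes. STEAP2 and HOXD13 were not highest in CPM. The median log2 fold change of the list was -0.18, beside -0.15 over all genes, and turned to 0.55, beside 0.02, in the random-effect fit, which averages the log levels of single libraries where the line sums average counts. STEAP2, a metalloreductase of the cell membrane, measured 59.6, 60.1 and 60.4 TPM, just above a highest other value of 57.7 TPM. HOXD13, a posterior HOX gene, measured 164, 172 and 164 TPM against a highest other value of 158 TPM. IGF1, the growth factor, measured 1.23, 1.19 and 2.47 TPM, below the 3.23 TPM of the lowest other library and their median of 9.53 TPM. VRK1, a nuclear kinase, measured 55.3, 47.9 and 48.8 TPM, and the other libraries began at 70.7 TPM. STEAP1, by contrast, was inside the other lines' range, at 144, 132 and 145 TPM.

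Among 18 genes repressed by EWS-FLI1, IGFBP3 alone was highest and 0 were lowest, beside 5.06% and 2.37% of all genes. The list's median log2 fold change was 0.18 over line sums, -0.23 without replicate 3 and 1.22 in the random-effect fit, where 2 of the 18 (11.1%) were below 0, beside 49.1% of all genes. IGFBP3 binds insulin-like growth factors outside the cell. It measured 37.4, 50.3 and 51.4 TPM, and the other libraries ran from 0 to 5.74 TPM with a median of 1.19, so MHHES1 stood clear of all of them (log2 fold change 4.40, SE 1.71). LOX, the collagen cross-linking enzyme, was not highest in MHHES1. It measured 6.6, 15.8 and 25.9 TPM, and replicate 1 lay below the highest other library (10.9 TPM). Of 35 genes of the extracellular matrix and mesenchymal list, 2 were highest, a share near the 5.06% of all genes, and 0 lowest. COL1A1, a chain of type I collagen, measured 139, 184 and 215 TPM against a median of 7.30 and a highest value of 110 TPM, which was in A673. TIMP3, an inhibitor of matrix proteases, measured 218, 201 and 193 TPM against 9.58 to 99.2 TPM. The list's median log2 fold change was -0.31 over line sums and 0.70 in the random-effect fit, so the list as a whole had no direction that held in both fits.

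**Figure D1:**
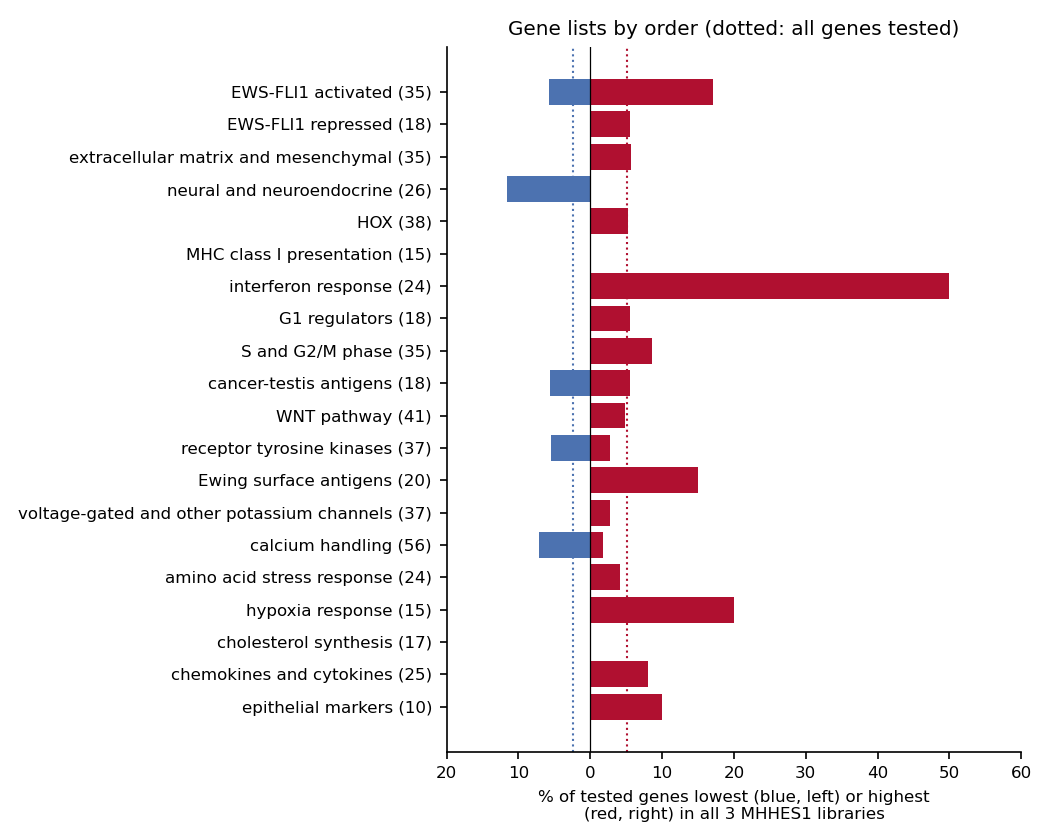
The bars give, for each of the gene lists shown, with at least 10 tested genes each (number in brackets), the share of genes that were lowest (blue, drawn to the left) or highest (red, drawn to the right) in all 3 MHHES1 libraries, in percent. The dotted lines mark all genes tested (2.37% and 5.06%); the interferon response list, with 12 of 24 genes highest, extends furthest to the right and the neural list, with 3 of 26 lowest, furthest to the left.

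The plot of lists by order shows 1 list far from the background. Interferon-stimulated genes were higher in MHHES1 than in the other lines, and much of the size of that difference came from replicate 3. Of the 24 genes of the interferon response list, 12 were highest in all 3 MHHES1 libraries (ISG15, IFIT1, IFIT2, IFIT3, MX1, MX2, OAS2, IFI6, IFI27, IFI44, BST2 and IFIH1) and 0 were lowest. In CPM 9 of the 24 were highest, without ISG15, IFIT1 and IFI27. The MHHES1 mean was the highest of the 7 line means for 23 of the 24, beside 15.9% of all genes. The exception was IFITM2. With replicate 3 left out, a looser rule that keeps every earlier gene, the same 12 genes and no others were highest (5.91% of all genes), and the list's median log2 fold change was 1.46, in place of 3.11 with it. DESeq2 called 6 of the 24, among them IFIT3, OAS2, IRF9, IFI6 and IFITM1, with replicate 3 and 0 without it. The random-effect fit called MX2 and BST2 with replicate 3, and MX2, OAS2 and BST2 without it. RNA of bulk libraries does not separate more cells with a response from more RNA per cell, and these cannot be told apart.

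The promoters of 4 genes from this list are shown because they carry the element that interferon signalling acts through, the site of the complex that holds STAT2 and IRF9. The sequences are RefSeq's for GRCh38.p14, cover the 250 bases before the gene start, run 5′ to 3′ on the gene's strand, and have in capitals each match to GAAA, any 2 bases and again GAAA, searched on both strands (TTTC, any 2 bases and TTTC where the match is on the other strand). ISG15 lies at chr1:1013247-1013496 (plus strand), IFI6 at chr1:27672193-27672442 (minus), IFIT1 at chr10:89392373-89392622 (plus) and BST2 at chr19:17405631-17405880 (minus).
ISG15: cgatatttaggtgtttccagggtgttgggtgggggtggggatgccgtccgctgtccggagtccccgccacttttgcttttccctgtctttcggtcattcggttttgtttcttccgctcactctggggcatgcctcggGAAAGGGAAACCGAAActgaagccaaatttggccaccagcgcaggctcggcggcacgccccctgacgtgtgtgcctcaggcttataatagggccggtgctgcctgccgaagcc
IFI6: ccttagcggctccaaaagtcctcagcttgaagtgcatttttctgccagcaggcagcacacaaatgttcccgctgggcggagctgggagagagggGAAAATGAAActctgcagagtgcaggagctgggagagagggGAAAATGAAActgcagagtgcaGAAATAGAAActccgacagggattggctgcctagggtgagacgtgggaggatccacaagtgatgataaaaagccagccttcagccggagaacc
IFIT1: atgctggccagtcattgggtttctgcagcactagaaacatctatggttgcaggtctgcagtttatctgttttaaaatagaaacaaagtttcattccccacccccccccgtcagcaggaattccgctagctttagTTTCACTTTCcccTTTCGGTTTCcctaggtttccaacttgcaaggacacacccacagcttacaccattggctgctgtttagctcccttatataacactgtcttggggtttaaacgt
BST2: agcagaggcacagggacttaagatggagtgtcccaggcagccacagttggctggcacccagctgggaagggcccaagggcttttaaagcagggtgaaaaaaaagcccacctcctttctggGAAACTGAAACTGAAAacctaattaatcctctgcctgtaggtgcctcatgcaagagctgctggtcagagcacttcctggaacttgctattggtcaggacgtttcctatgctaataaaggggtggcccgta

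Matches to this GAAA pair in the window, overlaps counted, numbered 2 in ISG15, 3 in IFI6, 2 in IFIT1 and 2 in BST2. The RefSeq table held promoters for 17 of the 24 genes, and 13 of the 17 (76.5%) had a match, beside 3.65% of all 27305 promoters. Of 23 promoters of a second list of interferon-stimulated genes, 11 (47.8%) had one. The lists were written as interferon-stimulated genes and the motif was picked after the levels had been seen, so this describes the genes and not MHHES1. Among all genes highest in MHHES1, 49 of 952 promoters (5.15%) had a match, and among those lowest 16 of 521 (3.07%), beside 3.26% of the tested genes with a promoter.

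OAS2 makes the 2-5A signal that activates RNase L. With replicate 3 kept, it had the largest log2 fold change above the other lines of any gene named by the rule. Without replicate 3 its fold change was below that of ARSI, described later. OAS2 measured 4.92, 9.60 and 147 TPM in MHHES1 replicates 1, 2 and 3. The other libraries ran from 0 to 0.816 TPM with a median of 0.173. All 3 MHHES1 libraries lay clear of the others, and replicate 3 lay far above its mates. The log2 fold change was 8.57 (SE 1.26, edgeR adjusted p = 0.364) and was 5.29 without replicate 3. IFI6, a membrane protein with the promoter shown above, measured 70.0, 158 and 1401 TPM, against 13.2 to 67.1 TPM elsewhere. Replicate 1 was thus close to EW3, the highest other line, and the log2 fold change of 3.96 (SE 0.56) was 1.52 without replicate 3.

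ISG15, a ubiquitin-like modifier, measured 142, 231 and 918 TPM against a highest other value of 139 TPM, in TC71. The 3 IFIT genes of the list, which bind viral RNA and lie together on chromosome 10, showed the same order of libraries. IFIT1 measured 6.65, 10.9 and 73.2 TPM against at most 6.51 TPM elsewhere. IFIT2 measured 9.61, 14.7 and 41.1 TPM against at most 7.17 TPM, and IFIT3 measured 18.3, 26.2 and 133 TPM against at most 9.90 TPM. In each of them the highest other library was TC71 replicate 1.

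The 2 MX genes, which encode antiviral GTPases side by side on chromosome 21, differed in their spread. MX1 measured 4.44, 2.97 and 82.9 TPM, against 0.0545 to 2.61 TPM elsewhere, and its log2 fold change of 5.26 (SE 1.33) was 2.20 without replicate 3. MX2 measured 37.1, 35.9 and 47.2 TPM, and the other libraries had a median of 0.331 and a highest value of 24.8 TPM, in SKES1. MX2 was thus closer between the replicates than MX1, and its log2 fold change was 3.09 with and 2.96 without replicate 3.

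BST2, or tetherin, which holds budding virus at the cell surface, measured 201, 299 and 549 TPM. The other libraries had a median of 2.91 and a highest value of 65.3 TPM, in RDES, and the log2 fold change was 4.74 (SE 1.65) with and 4.19 without replicate 3. BISPR, a noncoding gene that shares a promoter region with BST2, measured 13.9, 11.8 and 39.7 TPM against 0.174 to 1.99 TPM. DESeq2 called BISPR with replicate 3 (adjusted p = 3.37e-05) and without it (0.00239). Of the remaining genes highest in the list, IFI44 measured 111, 135 and 348 TPM against at most 69.7 TPM, and IFI27 measured 2.42, 3.20 and 16.3 TPM against at most 2.41 TPM, the narrowest gap of the 12.

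The genes of the signalling chain itself were less far apart. STAT2, a transcription factor of the pathway, measured 25.4, 30.02 and 79.1 TPM against 7.59 to 36.3 TPM elsewhere. IRF9, its DNA-binding partner, measured 15.4, 28.7 and 78.1 TPM against 4.05 to 17.4 TPM, so that each overlapped another line in at least 1 library. JAK1, the kinase bound to interferon receptors, was highest in MHHES1 and did not follow replicate 3. It measured 487, 439 and 503 TPM against 124 to 345 TPM elsewhere (log2 fold change 0.99, SE 0.49). JAK1 was the 1 gene of 9 receptors and kinases in a list added after the levels had been seen that was highest, and the list's median log2 fold change was 0.12 with and -0.06 without replicate 3.

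Of 22 interferon ligand genes in another added list, IFNB1 alone had enough counts to be tested, and without MHHES1 replicate 3 it did not. IFNB1, the gene for interferon beta, measured 0.106, 0.123 and 1.32 TPM in MHHES1, against 0 to 0.211 TPM in the other libraries, so that only replicate 3 lay above all of them. Sensors of foreign or misplaced nucleic acid were also compared, by an added list of 18 genes, of which 4 were highest: CGAS, IFIH1, DHX58 and EIF2AK2, beside 5.06% of all genes. In CPM 2 of the 18 were highest, without CGAS and EIF2AK2, beside 3.88% of all genes. CGAS, the DNA sensor that makes cGAMP, measured 22.3, 20.8 and 24.8 TPM against 0.0502 to 18.5 TPM, without an excess in replicate 3. IFIH1, the double-stranded RNA sensor MDA5, measured 9.80, 12.3 and 58.1 TPM against at most 3.36 TPM, with the excess. STING1, which acts after CGAS, measured 47.1, 49.7 and 55.6 TPM, within the other lines' 19.1 to 52.5 TPM for replicates 1 and 2.

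A further 26 interferon-stimulated genes, also listed after the levels had been seen, had 10 highest and 0 lowest, beside 5.06% and 2.37% of all genes, all 26 with a log2 fold change above 0, and a median of 2.71 with and 1.01 without replicate 3. XAF1, an antagonist of XIAP, measured 2.34, 4.19 and 36.8 TPM against 0.0521 to 1.66 TPM elsewhere. SP100, a nuclear body component, measured 17.1, 22.6 and 80.8 TPM against a median of 0.381 and a highest value of 6.74 TPM, in A673. The osteosarcoma lines had SP100 means from 26.1 to 58.3 TPM, above MHHES1 replicates 1 and 2 and below replicate 3.

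**Figure D2:**
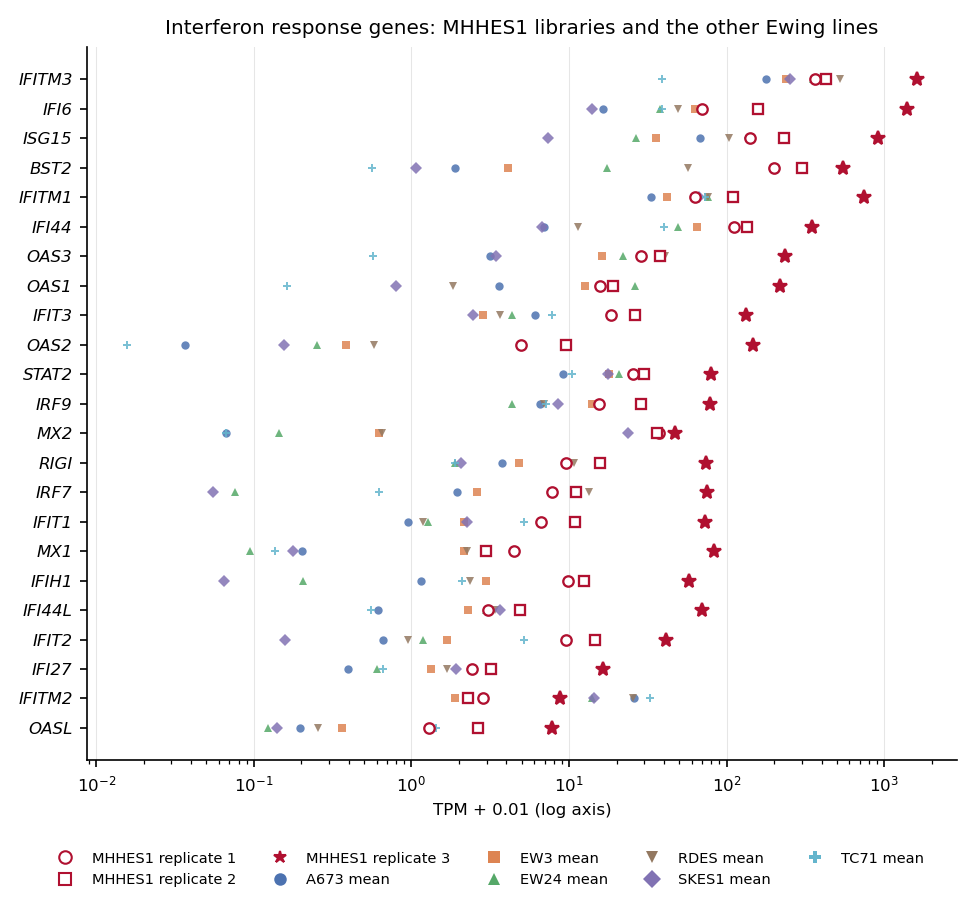
Levels of 23 interferon response genes, as TPM + 0.01 on a log axis, with open circles, open squares and stars for MHHES1 replicates 1, 2 and 3 and other symbols for the mean of each other Ewing line. Replicate 3 lies right of its mates for each gene, and IFITM2 is the gene for which the MHHES1 libraries lie left of most lines.

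The plot of interferon genes by library also shows IFITM2, at 2.85, 2.28 and 8.70 TPM against a median of 18.2 TPM in the other libraries. The IFITM genes are near-identical neighbours on chromosome 11, and the split of reads between them is uncertain. Of the 143 genes over 2-fold above in replicate 3, 11 of the 20 largest were in the interferon response list, and 19 when the interferon-stimulated genes listed after the levels had been seen were counted too. CXCL8, the neutrophil chemokine, also followed replicate 3, at 2.42, 9.11 and 51.0 TPM. CCL2, the monocyte chemokine, was highest in MHHES1, at 29.5, 38.6 and 101 TPM against at most 24.4 TPM, though not in CPM. Blood cell markers were no higher than in the other lines. Of the 9, 8 were under 1 TPM in all MHHES1 libraries, CD3E, TYROBP and HBB were at 0, and the summed level of the list was 3.12 to 6.09 TPM against 3.34 to 7.37 TPM elsewhere. The part of culture conditions in the excess of replicate 3 was not tested.

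Beyond the interferon genes described above, the largest differences above the other lines were in a mixed set of genes. These had a mean log2 CPM not under 1, and LOC and LINC genes were left out. The set may hold interferon-stimulated genes that are on none of the lists used here. NTRK2, which encodes the neurotrophin receptor TRKB, measured 9.80, 14.2 and 17.9 TPM in MHHES1, and the other libraries ran from 0 to 0.424 TPM with a median of 0.0164. All 3 MHHES1 libraries thus lay over the others and also over the highest osteosarcoma line mean (7.82 TPM, G292). The log2 fold change was 7.73 (SE 1.65, edgeR adjusted p = 0.881), and limma voom with the line as a random effect called it (adjusted p = 1.43e-06, and 1.07e-06 without replicate 3). NTRK3, its paralogue, was neither highest nor lowest, at 0.0416, 0.129 and 0.139 TPM, with 5.17 TPM as the EW3 mean.

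CRYAB, a small heat shock protein, measured 121, 360 and 576 TPM in MHHES1, with a spread between replicates, against 0.143 to 16.6 TPM elsewhere. CAVIN2, a coat protein of caveolae, measured 7.25, 9.93 and 10.8 TPM against at most 0.522 TPM. ARSI, a sulfatase, measured 8.85, 8.78 and 8.74 TPM against at most 0.613 TPM. The MHHES1 libraries agreed closely in ARSI, and its log2 fold change was 5.38 (SE 1.78) whether replicate 3 was kept or not. RGS7BP, which anchors a regulator of G protein signalling at the membrane, measured 16.7, 15.8 and 19.1 TPM, and A673 was the 1 other line above 1 TPM, at 3.22 TPM. GMPR, which turns GMP into IMP, measured 23.7, 23.8 and 52.0 TPM against 0.389 to 3.19 TPM, and DESeq2 called it with replicate 3 (adjusted p = 0.000303) and without it (0.00408).

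A pair of noncoding genes completed the set. BHLHE22-AS1 measured 15.2, 10.4 and 15.7 TPM against at most 1.71 TPM elsewhere. RNA28SN2, a copy of the 28S ribosomal RNA, measured 1325, 446 and 1191 TPM against at most 209 TPM, in EW3. Its copies are near-identical, so the level of a single copy is uncertain, and the part of leftover ribosomal RNA in these poly(A) libraries was not tested.

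**Figure D3:**
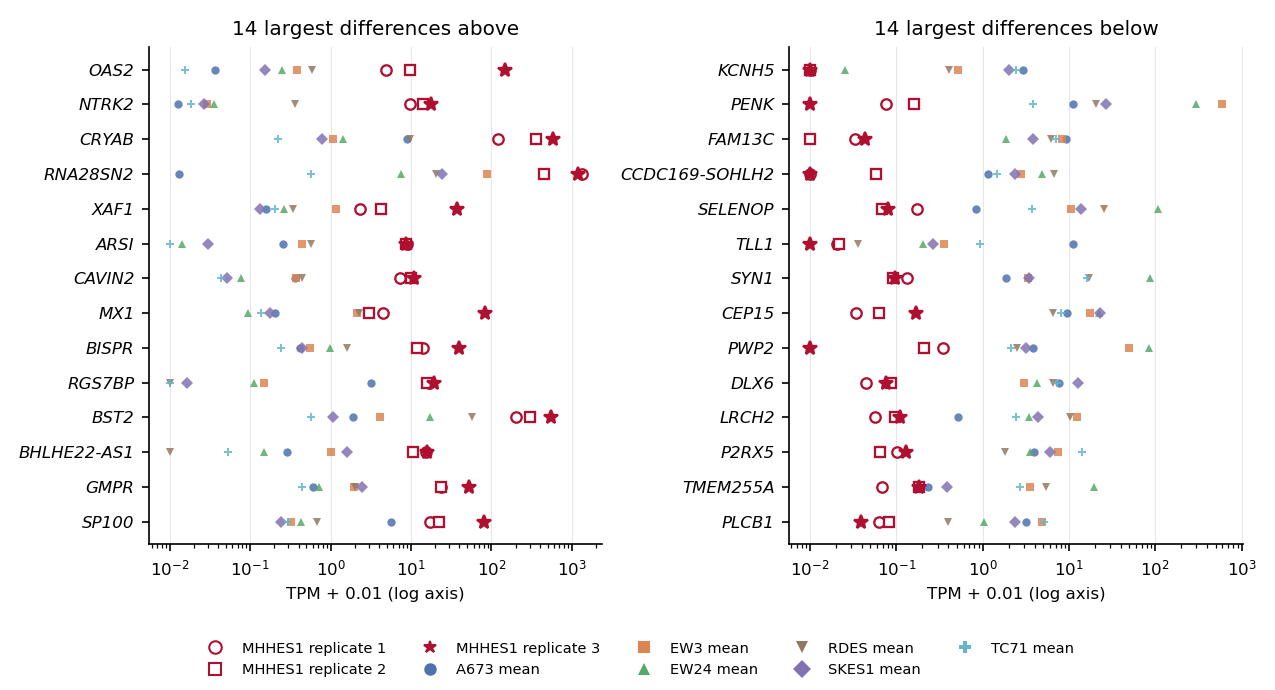
Levels of the 14 genes with the largest log2 fold change above (left) and below (right) the other Ewing lines among genes without overlap and with a mean log2 CPM not under 1 (LOC and LINC genes left out), as TPM + 0.01 on a log axis, with the 3 MHHES1 libraries in red and the mean of each other line in other colours. The interferon-stimulated genes OAS2, XAF1 and MX1 show replicate 3 apart from its mates, while ARSI, RGS7BP and CAVIN2 do not.

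Genes at the other end were near 0 in MHHES1. A value above 0 in each of the 18 other libraries follows from the order rule and does not by itself show detection. PENK, the precursor of enkephalin peptides, measured 0.0668, 0.152 and 0 TPM in MHHES1, with 3 counts in all, and the other libraries ran from 3.03 to 620 TPM. Scaled to depth, the mean of the other lines was 2390 times that of MHHES1, with a 95% exact interval of 819 to 11600 that covers counting error only, because PCR copies were not told apart by molecular identifiers. KCNH5, an ether-a-go-go potassium channel, had 0 counts in MHHES1 and 0.0035 to 3.54 TPM elsewhere, which makes it at least 96.8-fold lower against a floor of 3 counts over the MHHES1 libraries. FAM13C measured 0.0232, 0 and 0.0334 TPM, with 2 counts, against 1.69 to 11.8 TPM, a ratio of 402 (95% interval 106 to 3170). TLL1, a procollagen protease, also had 2 counts, with a ratio of 225 (62.4 to 1860) that came mostly from A673, the line with 11.1 TPM.

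SELENOP, a selenium carrier protein, measured 0.162, 0.0582 and 0.0692 TPM against 0.590 to 125 TPM elsewhere. SYN1, a phosphoprotein of synaptic vesicles, measured 0.122, 0.0822 and 0.0875 TPM against 1.74 to 95 TPM, and its log2 fold change was -7.96 (SE 3.31). DLX6, a homeobox gene of the distal-less family, measured 0.0343, 0.0773 and 0.0666 TPM against 2.53 to 14.4 TPM. Both DESeq2 (adjusted p = 8.61e-08) and the random-effect fit (adjusted p = 0.0278) called DLX6, and did so without replicate 3 (4.33e-06 and 0.0433). CEP15, a centrosomal protein gene, measured 0.0238, 0.0533 and 0.160 TPM against 3.62 to 26.9 TPM and was called by the same 2 tools (8.2e-09 and 0.0473). Without replicate 3, DESeq2 called CEP15 (6.62e-07) and the random-effect fit did not (0.0765).

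The remaining genes of this group were LRCH2, P2RX5, TMEM255A, PLCB1, PWP2 and CCDC169-SOHLH2. P2RX5, an ATP-gated ion channel, measured 0.0914, 0.0543 and 0.120 TPM against 1.59 to 16.8 TPM, and PLCB1, a phospholipase C, measured 0.0533, 0.0714 and 0.0286 TPM against 0.312 to 7.38 TPM. LRCH2 and TMEM255A lie on the X chromosome and had log2 fold changes of -6.49 and -6.22. PWP2 has a near-identical copy on chromosome 21, and CCDC169-SOHLH2 is a readthrough of 2 genes, so the share of reads given to either is uncertain.

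Most genes of the neural and neuroendocrine list had a log2 fold change below 0 against the mean of the other lines, though 3 were below every other library. Of 26 tested, 3 were lowest (SYP, CHGB and SCG2) and 0 were highest, beside 2.37% and 5.06% of all genes. A log2 fold change above 0 was found in 4 (15.4%), beside 41.4% of all genes. The median was -2.37, beside -0.15 over all genes. The MHHES1 line mean was the lowest of the 7 for 7 of the 26, beside 8.68% of all genes. SYP, the vesicle protein synaptophysin, measured 2.01, 1.94 and 1.74 TPM against 3.94 to 21.8 TPM elsewhere. SCG2, a secretory granule protein, measured 0.840, 0.908 and 1.07 TPM against 2.12 to 217 TPM. CHGB, chromogranin B, had 1 count in MHHES1, and the mean of the other lines was 77.7 times higher (95% interval 14 to 3070), at a level of at most 2.47 TPM. CHGA, chromogranin A, measured 0.120, 0.121 and 0.0476 TPM and overlapped RDES, at 0.0632 TPM in its lowest library. DESeq2 called CHGA alone of the list (adjusted p = 0.0426), and called 0 of the list without replicate 3, where CHGA had an adjusted p of 0.105. In the random-effect fit 20 of the 26 (76.9%) were below 0, beside 49.1% of all genes, and the median was -0.86, beside 0.02.

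**Figure D4:**
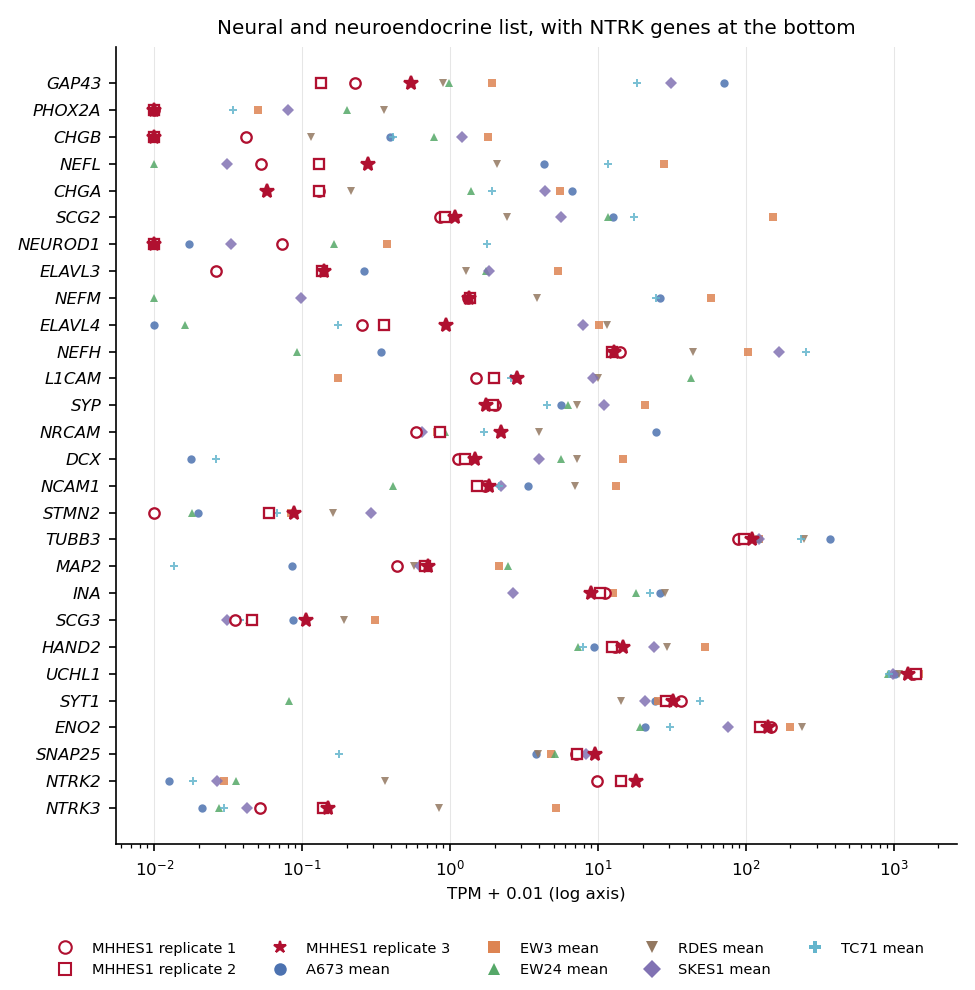
Levels of the 26 neural and neuroendocrine genes in order of log2 fold change, with NTRK2 and NTRK3 at the bottom, as TPM + 0.01 on a log axis. The red MHHES1 symbols lie toward the left of the other lines for SYP, CHGB and SCG2 and to the right of all of them for NTRK2.

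The plot of neural genes by library shows that the other lines were spread over wide ranges too. GAP43, a growth cone protein, measured 0.218, 0.124 and 0.537 TPM in MHHES1 and ran from 0.504 to 76.7 TPM elsewhere. PHOX2A, a factor of sympathetic neurons, had 0 counts in MHHES1 and at most 0.978 TPM in the other lines. NTS, the neuropeptide neurotensin, which was on no list, was highest, at 42.3, 40.1 and 53.5 TPM against 0.370 to 10.4 TPM (log2 fold change 3.71, SE 1.26).

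Channels and receptors were compared because the study concerns KCNN1, the gene of SK1, a potassium channel opened by calcium. KCNN1 was highest in MHHES1, at 47.0, 50.8 and 48.7 TPM against 6.43 to 42.7 TPM in the other libraries, and the log2 fold change was 0.75 (SE 0.64). EW3 was next, and the gap between the lowest MHHES1 and the highest EW3 library was narrow. In CPM the libraries overlapped and KCNN1 was not highest. The leading transcript NM_001386977.1 took 64.3% ± 3.26 of KCNN1 TPM in MHHES1 (SD, n = 3), inside the 37.4% to 89.3% of the other libraries. Of 9 calcium-activated potassium channel genes, KCNN1 was the 1 that was highest and 0 were lowest, beside 5.06% and 2.37% of all genes, and in CPM 0 were highest and KCNMB4 was lowest. The MHHES1 mean was the lowest of the 7 line means for 4 of the 9, beside 8.68% of all genes, and the list's median log2 fold change was -1.44, or -1.01 in the random-effect fit.

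Of 56 calcium handling genes, 4 were lowest (ORAI3, MICU2, TRPC1 and P2RX5) and 1 was highest (TRPV4), beside 2.37% and 5.06% of all genes. TRPC1, a cation channel, measured 0.183, 0.0767 and 0 TPM against 0.490 to 3.84 TPM. ORAI3, a pore subunit of store-operated channels, measured 1.54, 1.13 and 1.28 TPM against 1.62 to 4.57 TPM. TRPV4, an osmosensitive cation channel, measured 9.22, 8.18 and 8.98 TPM against 0.0180 to 3.15 TPM.

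Of 37 receptor tyrosine kinases, NTRK2 was the 1 that was highest, and FLT4 was among the 2 that were lowest, beside 5.06% and 2.37% of all genes. FLT4, the receptor of lymphatic growth factors, measured 1.47, 1.20 and 1.46 TPM against 2.91 to 9.34 TPM. Its transcripts were also split differently: NM_002020.5 took 70.5% to 84.6% of FLT4 TPM in MHHES1 and 38.4% to 70.1% in the other libraries. Transcript shares were examined for 56 named genes, and 5 (FLT4, HMGB1, ADD1, XRCC3 and TFDP1) had a transcript whose share lay outside the range of the other 18 libraries. In HMGB1, NM_001313893.1 took 50.4% to 54.7% in MHHES1 and 21.1% to 50.1% elsewhere. In these 5 genes the shares are estimates over 6 to 28 transcripts each.

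Surface antigens followed as 3 highest and 0 lowest of 20: STEAP2, B4GALNT1 and ALCAM, the last 2 also in CPM, beside 5.06% of all genes highest in TPM and 3.88% in CPM. B4GALNT1, the enzyme that makes gangliosides GM2 and GD2, measured 41.5, 48.0 and 39.7 TPM against 5.90 to 25 TPM elsewhere. ALCAM, a cell adhesion molecule, measured 56.2, 49.1 and 61.1 TPM against at most 47.5 TPM. CD99, the membrane antigen used in Ewing diagnosis, measured 502, 443 and 435 TPM, in the lower part of a range of 277 to 1886 TPM. Of 18 cancer-testis antigens, PRAME was highest, at 346, 325 and 332 TPM against at most 200.4 TPM, and XAGE1B was lowest, at 166, 124 and 138 TPM against 234 to 1773 TPM. XAGE1 genes are near-identical copies on the X chromosome, so the XAGE1B level is uncertain.

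The cell cycle and stress lists were read beside the 5.06% of all genes that were highest. Of 18 G1 regulators, CCND1 alone was highest and 0 were lowest. Of 35 S and G2/M phase genes, BUB1, MCM5 and UHRF1 were highest and 0 were lowest, with a median of 0.04, and none of these 3 was highest in CPM. BUB1, a spindle checkpoint kinase, measured 147, 138 and 131 TPM against at most 103 TPM. Of 15 hypoxia response genes, ADM, BNIP3 and ANKRD37 were highest on both scales (20%, beside 5.06% of all genes) and 0 were lowest. ADM, the vasodilator adrenomedullin, measured 19.97, 22.2 and 26.7 TPM against 1.22 to 12 TPM, and BNIP3, a mitophagy receptor, measured 131, 98.5 and 129 TPM against 27.8 to 77.0 TPM. NUPR1, a stress-induced chromatin protein, was the 1 highest gene of 24 in the amino acid stress response list. It measured 2.48, 2.35 and 3.82 TPM against at most 1.13 TPM. The list as a whole went the other way. Its median log2 fold change was -0.44, and 5 of the 24 (20.8%) were above 0, beside 41.4% of all genes. In the random-effect fit 18 (75%) were below 0, beside 49.1% of all genes. In the WNT list, 2 of 41 were highest (LGR4 and KREMEN1) and 0 lowest, with 0 highest in CPM. In the HOX list, HOXD13 and HOXA9 were highest among 38 genes, and HOXA9 measured 7.05, 6.47 and 7.27 TPM against 6.47 TPM in the highest RDES library. Of 25 chemokines and cytokines, CCL2 and ACKR3 were highest and 0 lowest. Among lists of pathways, those with 0 highest and 0 lowest genes included MHC class I presentation (15 genes tested), MHC class II (8) and cholesterol synthesis (17). In the MHC class I list the MHHES1 mean was nonetheless the highest of the 7 line means for 6 of the 15, beside 15.9% of all genes, and 11 (73.3%) had a log2 fold change above 0, beside 41.4%. That list's median log2 fold change was 0.53 with and 0.28 without replicate 3, and 1.44 in the random-effect fit. In the cholesterol synthesis list 3 of the 17 (17.6%) had a log2 fold change above 0, and the median was -0.305. In the random-effect fit 13 of these 17 (76.5%) were below 0, beside 49.1% of all genes. In the MHC class II list 3 of the 8 (37.5%) were above 0 over line sums.

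Markers of epithelium, muscle, endothelium, melanocytes and osteoblasts were inside the range of the other lines in their summed levels. Of the 14 epithelial markers 12 were under 1 TPM in all MHHES1 libraries, with a sum of 12.5 to 21.5 TPM against 3.04 to 650 TPM elsewhere. KRT5, a basal keratin, was highest, at 0.106, 0.119 and 0.0948 TPM against at most 0.0834 TPM. Among the muscle markers MYH3, an embryonic myosin heavy chain, was highest, at 1.73, 1.70 and 1.72 TPM against at most 1.59 TPM, though not in CPM. Muscle markers summed to 2.01 to 2.41 TPM, against 0.619 to 3.02 TPM elsewhere, with MYOG and MYF5 at 0, endothelial markers to 2.52 to 4.32 TPM (0.714 to 50.1 elsewhere) with TEK at 0, and melanocyte and Schwann markers to 2.81 to 3.12 TPM (1.85 to 80.02 elsewhere) with TYR at 0. Osteoblast markers summed to 108 to 119 TPM, inside the 4.96 to 209 TPM of the other lines, with IBSP and DMP1 at 0.

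Many of the lowest genes shared a chromosome. Of the 607 lowest genes, 91 (15%) were on chromosome 13, which held 2.03% of the tested genes. These were 17.5% of the 520 tested genes of that chromosome, and on any other chromosome the share of lowest genes was 0.545% (chromosome 9) to 5.66% (chromosome 3). In CPM, 123 of 907 lowest genes (13.6%) were on chromosome 13. The median log2 fold change over the 520 genes was -1.03. Among 236 genes with a mean log2 CPM over 1, 223 (94.5%) had a log2 fold change below 0 and the median was -1.11, or 46.3% of the level of the other lines. The next lowest chromosome median in MHHES1 was -0.51, on the X chromosome, and the highest was 0.05, on chromosome 12.

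The shift was alike in the 3 libraries. When the log2 CPM of each gene with a mean over 1 was set relative to the mean of the other lines, and each library's overall median to 0, the chromosome 13 medians were -0.93, -0.92 and -0.86 in MHHES1 replicates 1, 2 and 3. The line value was -0.98, and the other lines had chromosome 13 values from -0.09 (EW24) to 0.54 (TC71). In the other lines the lowest value of any chromosome was -0.53, for chromosome 18 in EW24. DNA copy number was not analysed here, and its part in these levels was not tested.

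**Figure D5:**
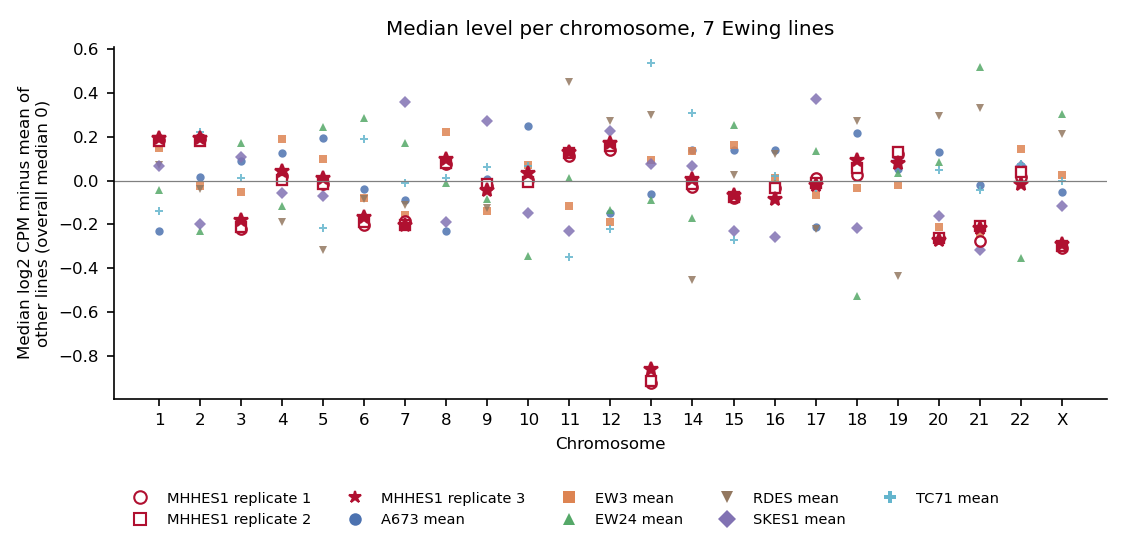
Median per chromosome of log2 CPM relative to the mean of the other Ewing lines, with the overall median of each library or line set to 0, for the 3 MHHES1 libraries (red) and the 6 other Ewing lines. The MHHES1 values on chromosome 13, between -0.93 and -0.86, are the lowest points of the plot.

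The plot of medians by chromosome can be followed along chromosome 13. In windows of 10 Mb with at least 20 genes, all 6 windows of chromosome 13 had a centred median under -0.6, from -1.30 (30 to 40 Mb) to -0.87 (90 to 100 Mb). Of 246 such windows in the genome, 17 were under -0.6. The other 11 were at 20 to 40 Mb of chromosome 17, with medians of -1.14 and -0.88, at 90 to 110 Mb of chromosome 14, with -0.64 and -0.78, at the first 10 Mb of chromosome 4, with -0.86, at 4 windows of chromosome 3, from -0.91 to -0.62, and at both ends of the X chromosome, with -0.70 and -0.63.

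The chromosome 13 genes in this paragraph and the next, apart from MICU2, were picked after their levels had been seen. They were the protein-coding genes with the highest mean log2 CPM among those already lowest in MHHES1. Their ranges and ratios therefore describe genes chosen for being low. HMGB1, an abundant chromatin protein, measured 472, 471 and 419 TPM against 606 to 1407 TPM in the other libraries (log2 fold change -1.11, SE 0.51). RPL21, a ribosomal protein gene with many processed copies, measured 1408, 1526 and 1443 TPM against 2595 to 5360 TPM. TPT1, the tumour protein TCTP, measured 322, 310 and 334 TPM against 365 to 946 TPM. All 3 were lowest in MHHES1 without overlap, which was the condition for choosing them. Of all tested genes of the chromosome, 17.5% were lowest.

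TFDP1, the partner of E2F factors, measured 103, 101 and 95 TPM against 122 to 244 TPM, and IRS2, an adaptor of insulin and IGF receptors, measured 25.1, 18.3 and 21.5 TPM against 25.8 to 109 TPM. LAMP1, a lysosomal membrane protein, measured 60.4, 59.1 and 62.2 TPM against 71.0 to 183 TPM. MICU2, a regulator of mitochondrial calcium uptake and one of the 4 lowest calcium handling genes, lies on chromosome 13 too, at 28.7, 27 and 30.7 TPM against 42.8 to 95 TPM. HSPH1 and TM9SF2 had log2 fold changes of -1.22 and -0.98.

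The tumour suppressors of the chromosome were below the other lines' median without being lowest. RB1 measured 21.6, 20.1 and 22.5 TPM against a median of 30.3 TPM, and BRCA2 measured 4.15, 3.40 and 4.53 TPM against 6.07 TPM. BRCA2 overlapped TC71 replicate 3, the library that stood apart from its own line, and RB1 overlapped that library and SKES1 replicate 2. KLF5, a Krüppel-like factor, went the other way and was 1 of 8 chromosome 13 genes that were highest, at 2.90, 2.66 and 4.79 TPM against at most 2.33 TPM.

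Runs of at least 4 neighbouring tested genes with the same order were found at 7 places in MHHES1, and the other lines had 5 (EW24) to 44 (EW3). The 3 runs of lowest genes lay within low windows: SAP18, SKA3, MRPL57 and 2 noncoding genes on chromosome 13 (chr13:21140119-21392923), BAG5, COA8, KLC1 and XRCC3 on chromosome 14 (chr14:103556551-103715451), and FAM193A, TNIP2, SH3BP2 and ADD1 on chromosome 4 (chr4:2535375-2930062), positions in RefSeq's GRCh38.p14. SAP18, a corepressor subunit, measured 41.9, 39.99 and 40.8 TPM against 69.8 to 180 TPM. XRCC3, a recombination repair gene, measured 23.7, 22.8 and 22.5 TPM against 31.1 to 59.8 TPM. ADD1, a membrane skeleton protein, measured 65.2, 60.1 and 59.6 TPM against 70.8 to 127 TPM.

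The 4 runs of highest genes were on chromosomes 11, 17 and 19. On chromosome 19, 5 zinc finger genes in a row (ZNF551, ZNF154, ZNF671, ZNF776 and ZNF586, chr19:57681977-57780616) were highest. ZNF154 measured 5.37, 5.19 and 5.46 TPM against a median of 0.236 and a highest value of 4.23 TPM, in RDES. ZNF671 measured 7.76, 8.15 and 7.35 TPM against a median of 0.595 and a highest value of 2.99 TPM, also in RDES. The neighbouring ZNF776 differed less, at 16.4, 15.5 and 15.9 TPM against 3.83 to 13 TPM. Zinc finger genes of this cluster are related in sequence, and reads shared between them are split by estimate.

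The second run on chromosome 19 held NWD1, at 11.7, 10.4 and 11 TPM against a median of 0.345 and a highest value of 1.94 TPM, together with TMEM38A, SMIM7 and a noncoding gene. SMIM7 differed little, at 120, 114 and 109 TPM against 63.2 to 108 TPM. On chromosome 11, FDX1, an electron carrier of steroid synthesis, measured 72.1, 61.9 and 76.7 TPM against 23.4 to 54.8 TPM, and its neighbour ARHGAP20 measured 7.39, 6.05 and 7.46 TPM against 0.398 to 3.13 TPM. On chromosome 17, NPEPPS, an aminopeptidase, measured 96.9, 88.7 and 85.7 TPM against 26.1 to 76.9 TPM.

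Promoters of the highest and lowest genes were searched for the motif read by ETS factors and by the fusion, on both strands in 250 bases before the start. A pair of GGAA repeats, GGAAGGAA, was in 3.99% of 952 promoters of highest genes and 3.84% of 521 promoters of lowest genes, beside 3.52% of the tested genes with a promoter. The ETS site CCGGAAGT was in 6.93% and 9.40%, beside 6.15%. GGAA repeats that the fusion binds also lie far from promoters, outside this window.

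The osteosarcoma lines place the MHHES1 levels in a wider frame. Of the 1297 highest genes, 720 (55.5%) had an MHHES1 mean above each of the 6 osteosarcoma line means, and 15 lay below all of them. Of the 607 lowest genes, 295 (48.6%) lay below all 6 osteosarcoma means. The genes were chosen for high or low values in the same MHHES1 libraries, so these shares are a description and are not set against those of all genes. The MHHES1 means of LOXHD1, PAX7, CCND1 and NTRK2 were above every osteosarcoma line. CRYAB and COL1A1 were not, with 636 TPM in G292 and 3192 TPM in SAOS2 as the highest osteosarcoma means. OAS2 in the osteosarcoma lines was at most 7.96 TPM, between MHHES1 replicates 1 and 2. Of the genes near 0 in MHHES1, PENK was also low in osteosarcoma, with a median of the line means of 0.201 TPM, and CEP15 had a median of 0.0445 TPM there, with 59.8 TPM in G292.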

How the data were processed

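Members and gene lists were chosen with earlier results of these data known. Per the labels' protocols, the kits were NucleoSpin RNA Plus for extraction and Illumina TruSeq Stranded mRNA for the libraries. For each library the authors deposited a table of 177816 RefSeq transcripts that holds, per the file headers, the length, the effective length in nucleotides (other values), the estimated count (not scaled) and the TPM value (scaled for effective length and depth). The submitters' processing notes name fastp 0.19.5, kallisto 0.46.2, hg38 and GRCh38.p14, without their roles. Transcripts were joined by accession to RefSeq's GRCh38.p14 genes (169960 matched, 95.6%), which left out 1.07% to 1.60% of a library's counts, and were summed over 41578 genes, with 0 mitochondrial genes in the tables.

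Each line's counts were summed over 3 libraries and rounded, filtered with filterByExpr (minimum count 10), scaled by TMM and fitted with edgeR 4.0.16 (quasi-likelihood, robust), MHHES1 against 6 lines, with Benjamini-Hochberg adjustment over 25640 genes and a threshold of 0.05. The order rule used TPM, with TMM-scaled CPM as an alternative. Alternatives were DESeq2 1.42.0, limma 3.58.1, fits of the 21 libraries, RLE scaling, no filter, effective length offsets, and each line or replicate left out; fits without MHHES1 replicate 3 by DESeq2 and limma, and without TC71 replicate 3 and EW3 replicate 1, were added after the data had been seen. The edgeR step was tested on simulated data. Named genes were KCNN1, FLI1, ERG, EWSR1, NR0B1, NKX2-2, STEAP1, CCND1 and LOX, the 14 genes each way with the largest log2 fold change among those without overlap and with mean log2 CPM not under 1 (leaving out LOC and LINC genes), up to 4 highest or lowest genes of each of 28 lists, and genes in runs. Others were picked after their values had been seen: the remaining interferon genes, the chromosome 13 genes outside runs, and CDKN2A, CD99, NTRK3, NTS, STING1, CHGA, GAP43, PHOX2A, CXCL8, ORAI3, IFNB1, CGAS and HSPA1A. The 4 lists of interferon ligands, interferon receptors and kinases, nucleic acid sensing and further interferon-stimulated genes were added in the same way. A few genes and lists are not reported here in full.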

Additional observations from a re-analysis of the deposited data

Results flagged for a closer look

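Among 89 named genes whose means over the 6 other Ewing lines differed by over 2-fold (log2 TPM + 1), 13 had 1 line whose gap to its nearest neighbour was large for the range of the 6 (Dixon's test at 95%, which flags about 1 in 20 groups by chance). These lines set the mean that MHHES1 was compared with. EW3 was apart with 2.08 TPM of FLI1 against 28.7 to 42.8 TPM in the other 5 lines, 34.8 TPM of ERG against at most 0.0073 TPM, 2.17 TPM of HOXD13 against 36.2 to 149 TPM, and 5.17 TPM of NTRK3 against at most 0.828 TPM. RDES was apart with 0.316 TPM of NR0B1, 5.20 TPM of HOXA9, 3.58 TPM of ZNF154 and 13.9 TPM of CXCL8. In HOXA9 the next line had 0.532 TPM, and MHHES1 had 6.93 TPM. A673 was apart with 3.22 TPM of RGS7BP, 5.57 TPM of SP100 and 11.1 TPM of TLL1. EW24 was apart with 1.62 TPM of NWD1, and SKES1 with 1.33 TPM of HSPA1A against 70.2 to 147 TPM.

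MHHES1 was itself apart from the other 6 lines in the centred median of chromosome 13 (-0.98, against -0.09 to 0.54). The gap was 0.588 of the range of the 7 lines. Only chromosome 13 was put through this test, after its median had been seen to be the lowest in MHHES1. The flag thus restates that value and adds no support to it. The medians were set relative to the mean of the other 6 lines, which leaves MHHES1 out.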

How the results depend on the processing

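edgeR on line sums called 0 genes in each direction under RLE scaling, without a filter, with effective length offsets and with any line left out; with 1 replicate left out, the counts were 0 above and 0 to 1 below, the 1 call coming without MHHES1 replicate 2. Other tools called 35 above and 132 below (DESeq2), 114 and 13 (limma voom, line as random effect), 28 and 124 (DESeq2 without MHHES1 replicate 3) and 90 and 8 (random effect without it). With the 21 libraries as samples and line means as fixed effects, edgeR called 5848 above and 4705 below, and 5920 and 4718 with a replicate block; such fits measure the spread within lines, not between them. Replicate numbers did not pair the libraries: deviations of same-numbered MHHES1 libraries and those of another line correlated at -0.182 to 0.0922, 0 of 18 over 0.1, and 5 of 18 correlated best with their own number. The random-effect and fixed-mean fits moved the median over all genes from -0.15 to 0.02 and 0.04. The order counts were 996 highest and 907 lowest in TMM-scaled CPM, 80 highest and 28 lowest with a 2-fold gap, 1949 highest without line RDES, and from 1445 to 2018 highest and 683 to 954 lowest with replicates left out, which loosens the rule (of every line, of MHHES1, or TC71 replicate 3 with EW3 replicate 1). Of 133 named genes, 131 kept their direction in 22 other fits. CDKN2A, at -1.80 in edgeR, was 0.96 and 1.01 in the random-effect fits with and without MHHES1 replicate 3 and 1.56 in both fixed-mean fits. HSPA1A, at 0.08, was -0.0352, -0.0145 and -0.19 without line EW3, RDES or SKES1, and -0.73 to 0.76 with a replicate left out, with -0.43 without MHHES1 replicate 2. The causes were not tested. The chromosome 13 median was -1.04 under RLE scaling, -1.08 in DESeq2 without MHHES1 replicate 3, -0.79 and -0.84 in the random-effect fits with and without it, -0.82 and -0.81 in the fixed-mean fits without and with the replicate block, -1.06 without line EW24, -0.93 without line TC71 and -1.09 to -1.001 with a replicate left out. With 3 libraries a line and 1 line of interest, edgeR recovered 1% of simulated log2 changes of 2 and 36% of those of 4, so that a gene not called is not shown to be alike.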
